A study of Homo sapiens with 6 samples.

Results

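Genes named LINC followed by a number are loci catalogued as long intergenic non-coding RNAs, and 73 of them were expressed in these H9 cells. The count table holds 375 rows with a name of that form, and a row was taken where its mean over the 6 libraries was at least 0.5 CPM, the count scaled to the library's total. These 73 were thus chosen by their measured level, averaged over both groups, and are 19.5% of the rows. H9 is an established embryonic stem cell line of human origin, kept here in RSeT, a medium for naive-type pluripotent cells. From 24 h after passage all cells received 10 nM DZNep, which blocks S-adenosylhomocysteine hydrolase, and 5 nM trichostatin A (TSA), an inhibitor of histone deacetylases. One group also received 2.5 µM UNC1999 for 48 h and the other 2.5 µM UNC2400 for the same time, with 3 poly(A)-selected libraries each. UNC1999 inhibits the histone methyltransferases EZH2 and EZH1, and UNC2400 is its N-methylated analog of low activity. No group lacked DZNep, TSA or a UNC compound. The cells come from a single line, and the labels do not say whether the libraries of a group came from separate cultures, and the p-values below therefore speak of the spread among the libraries, which may be technical.

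Long non-coding RNAs are transcribed by RNA polymerase II and mostly spliced and polyadenylated like messenger RNAs, but they lack a long open reading frame. Some act as RNA, by binding proteins or by the act of transcription near another gene, and some loci first catalogued as non-coding were later found to encode short proteins. EZH2 and EZH1 are the catalytic subunits of Polycomb repressive complex 2 (PRC2), which methylates lysine 27 of histone H3 at developmental genes and keeps them silent in pluripotent cells. Several LINC transcripts are known mainly from undifferentiated human pluripotent cells.

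The comparison of UNC1999 with UNC2400 at a matched dose and time showed LINC genes that differed in both directions. By edgeR's quasi-likelihood test 23 of the 73 were higher in UNC1999, 12 were lower, and 38 did not pass an adjusted p of 0.05. LINC00086, LINC00052, LINC00526, LINC00152 and LINC00847 had log2 fold changes of 1.10 to 1.43, and LINC00639, LINC00607 and LINC00342 of -2.17 to -1.29. Of these, LINC00639 reached the limit of 0.5 CPM only through UNC2400, where it is high. The most abundant member, LINC00657, was higher by a log2 fold change of 0.31 ± 0.05 (SE). The pluripotency-linked transcripts LINC00678 and LINC00617 were lower.

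The sequence around the start site is printed for a few members, to show how unlike these loci are where transcription begins. Each window runs 5′ to 3′ along the gene's strand from 250 bases before to 50 bases after the RefSeq start in build GRCh38.p14, and such a window was found for 51 of the 73 members. LINC00526 and LINC00667, both higher in UNC1999, are read in opposite directions from start sites with 70 bases between them, so their windows share 170 bases. In the window of LINC00667 the shared bases (chr18:5237980-5238149) are in capitals.
LINC00667 (chr18:5237850-5238149, plus strand): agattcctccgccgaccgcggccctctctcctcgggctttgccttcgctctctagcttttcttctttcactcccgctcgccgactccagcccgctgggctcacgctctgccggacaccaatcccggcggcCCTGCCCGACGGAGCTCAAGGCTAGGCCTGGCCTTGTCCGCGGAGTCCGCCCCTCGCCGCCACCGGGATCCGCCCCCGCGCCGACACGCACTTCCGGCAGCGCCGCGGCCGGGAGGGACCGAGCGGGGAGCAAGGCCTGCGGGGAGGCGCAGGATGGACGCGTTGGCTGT

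In the next windows the CG dinucleotides are in capitals. LINC00847, LINC00657 and LINC00152 were higher in UNC1999, and LINC00607 and LINC00852 were lower.
LINC00847 (chr5:180830707-180831006, plus strand): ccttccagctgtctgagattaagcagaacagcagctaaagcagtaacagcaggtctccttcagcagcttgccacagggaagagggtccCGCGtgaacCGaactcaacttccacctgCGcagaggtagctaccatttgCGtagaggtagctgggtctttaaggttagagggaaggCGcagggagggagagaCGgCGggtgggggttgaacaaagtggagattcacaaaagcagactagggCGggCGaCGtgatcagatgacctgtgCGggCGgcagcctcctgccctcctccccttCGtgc
LINC00657 (chr20:36050911-36051210, minus strand): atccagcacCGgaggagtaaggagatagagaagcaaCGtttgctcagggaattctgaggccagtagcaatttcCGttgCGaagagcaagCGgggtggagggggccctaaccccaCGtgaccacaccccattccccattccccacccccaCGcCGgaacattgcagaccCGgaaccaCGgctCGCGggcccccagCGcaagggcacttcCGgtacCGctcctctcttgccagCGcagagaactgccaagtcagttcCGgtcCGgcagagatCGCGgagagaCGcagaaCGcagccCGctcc
LINC00152 (chr2:87455177-87455476, plus strand): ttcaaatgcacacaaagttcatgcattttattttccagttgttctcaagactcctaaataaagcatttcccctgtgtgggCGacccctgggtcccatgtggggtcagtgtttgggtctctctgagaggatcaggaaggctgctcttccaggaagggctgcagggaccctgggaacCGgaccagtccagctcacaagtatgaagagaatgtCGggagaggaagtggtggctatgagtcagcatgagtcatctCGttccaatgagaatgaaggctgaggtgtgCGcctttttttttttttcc
LINC00607 (chr2:215843487-215843786, minus strand): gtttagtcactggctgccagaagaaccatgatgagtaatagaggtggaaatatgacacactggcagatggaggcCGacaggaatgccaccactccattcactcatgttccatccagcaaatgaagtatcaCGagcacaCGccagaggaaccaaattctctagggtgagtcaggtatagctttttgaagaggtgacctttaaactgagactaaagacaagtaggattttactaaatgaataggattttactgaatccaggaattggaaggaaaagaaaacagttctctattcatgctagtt
LINC00852 (chr3:10284169-10284468, plus strand): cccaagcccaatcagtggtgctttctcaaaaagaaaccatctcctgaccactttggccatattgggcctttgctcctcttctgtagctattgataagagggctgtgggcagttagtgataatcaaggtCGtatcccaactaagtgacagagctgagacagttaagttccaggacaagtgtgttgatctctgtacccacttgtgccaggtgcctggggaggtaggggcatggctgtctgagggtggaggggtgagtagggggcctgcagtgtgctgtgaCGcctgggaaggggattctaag

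The windows differ widely in CG content among members that moved the same way. The window of LINC00667 holds 38 CG dinucleotides, that of LINC00526 holds 35, that of LINC00657 holds 23 and that of LINC00847 holds 14. LINC00152 was higher too, yet its window holds 5. Among the lower members, LINC00607 has 3 and LINC00852 has 2. The lower members whose windows are not printed have more: LINC00617 has 39 (ratio of observed to expected 0.87), LINC00304 has 11 (0.47) and LINC00630 has 10 (0.63). The observed number of CG dinucleotides over that expected from the C and G content was 0.99 for LINC00667, 0.78 for LINC00657, 0.56 for LINC00847, 0.27 for LINC00152, 0.23 for LINC00607 and 0.10 for LINC00852. The median of this ratio was 0.69 over 18 members that were higher, 0.47 over 5 that were lower and 0.51 over 28 not called. Over all 27305 RefSeq windows it was 0.58. All genes tested had medians of 0.83 where higher, 0.84 where lower and 0.81 where not called, so LINC start windows were poorer in CG than those of the genes tested as a whole. The rank correlation of the ratio with the fold change was weak, 0.12 across 51 members and -0.003 across 12031 genes tested. These are correlations across genes, which are not independent replicates.

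The GC box letters GGGCGG, or CCGCCC on the other strand, were found in 18 of the 51 windows (35.3%), against 44.6% of all 27305 windows and 68.6% of those of the genes tested. The CCAAT letters, or ATTGG, were found in 26 of 51 (51.0%), against 35.7% and 36.2%. Both strands were searched. The window of LINC00667 holds 1 CCAAT match and that of LINC00852 holds 2.

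LINC transcripts made up a small part of the RNA. Their counts were 0.104% of all counts, and LINC00657 alone gave 27.5% of their summed CPM, the 4 highest members 58.2%. The members' median mean level was 2.37 CPM. There were 15 members at 10 CPM or more, 39 from 1 to 10 and 19 below 1. The limit of 0.5 CPM equals 14.8 counts in the shallowest library and 21.2 in the deepest. Just inside it lay LINC00652 at 0.533, LINC00562 at 0.554 and LINC00862 at 0.640 mean CPM. Just outside lay LINC00324 at 0.481, LINC00115 at 0.463 and LINC00340 at 0.442. Of the 302 rows below the limit, 114 had 0 counts in all 6 libraries, where a count of 0 allows up to 0.0708 to 0.101 CPM, counting error only. The other 188 had a median of 0.0262 CPM. All 73 members passed the low-count filter. The mean of LINC00652 was below the limit in UNC2400, and those of LINC00639 and LINC00304 were below it in UNC1999, so these members entered through the group in which they are high. In the other direction, 1 row outside the members reached the limit in UNC2400 and 3 did in UNC1999.

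Summed over members, the level was 984, 978 and 975 CPM in UNC2400 replicates 1 to 3, and 1057, 1155 and 1096 CPM in UNC1999 replicates 1 to 3. Every UNC1999 library lay above every UNC2400 library. The means were 979 ± 4.55 and 1103 ± 49.5 CPM (SD, n = 3 each), a difference of 123.6 CPM with an exact two-sided permutation p of 0.1, the smallest that 3 against 3 libraries can give. Without LINC00657 the sums were 729 ± 9.86 and 781 ± 30.0 CPM (SD, n = 3 each; exact permutation p = 0.1), a difference of 51.5. The summed level is thus set by a few transcripts.

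The 6 libraries held 29699441 to 42345448 counts. UNC1999 replicate 1 stood apart from the others of its group, with a score of 20.1 on the first principal component (67.8% of the variance) against 39.3 and 41.4. It was the lowest UNC1999 library in 19 of the 23 higher members and the highest in 9 of the 12 lower ones, and without it 40 members were called. Markers of pluripotent cells were at 1 CPM or more for 12 of 12 genes, summed to 11543 to 11627 CPM in UNC2400 and 8800 to 9714 in UNC1999. Fibroblast or feeder markers (5 of 10 genes at 1 CPM) summed to 268 to 294 and 183 to 207 CPM, endoderm markers (1 of 7) to 2.26 to 3.30 and 4.58 to 7.44, and mesoderm markers (2 of 5) to 7.24 to 9.99 and 8.70 to 11.4. Neuroectoderm markers (3 of 6) summed to 364 to 378 and 347 to 363 CPM, and trophoblast markers (1 of 6, with CGB5 at 0) to 1.78 to 2.60 and 2.09 to 2.67. The part of these shifts in the results on LINC genes was not tested, and in bulk RNA fewer cells of a type and less RNA per cell cannot be told apart.

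Against this background of a broad response, LINC genes were called about as often as other genes. Of the 73, 35 passed (47.9%), while 52.7% of all 17596 genes tested passed, and 55.8% of the 16126 with a mean of at least 0.5 CPM. The 23 higher members are 31.5% of the 73, beside 26.8% of all genes tested called higher and 28.3% of those with a mean of at least 0.5 CPM. The 12 lower ones are 16.4%, beside 25.9% and 27.5%. Offsets for genomic span, exon length and GC content could be fitted for 66 members. Of these 66, the fit without offsets called 21 higher and 12 lower. With the offsets 16 were higher and 14 lower, so the split moved towards equal numbers. The offsets were fitted to these same libraries and take out any treatment effect that goes with these properties. The shift therefore does not show why higher members outnumbered lower ones, which was not tested. The groups did not overlap in 43 members (58.9%), beside 60.6% of all genes tested and 63.5% of those with a mean of at least 0.5 CPM. All 23 higher members and 11 of the 12 lower ones were among them, LINC00630 being the exception.

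Fold changes among the members were larger than in the genes tested as a whole, and their errors were larger too. The median absolute log2 fold change was 0.44 in the members and 0.28 in all genes tested, with median SEs of 0.20 and 0.09. The median log2 fold change was 0.24, beside 0.02 over all genes tested. It was 0.04 over the 27 members that share no near-identical sequence or exon position with another gene, 14 of them above 0 and 13 below. More than 2-fold higher were 7 members, beside 3.56% of all genes tested and 3.01% of those with a mean of at least 0.5 CPM. More than 2-fold lower were 5 members, beside 2.61% and 2.26%. Some of these reached the member limit only through the group in which they are high: among the 70 members with at least 0.5 CPM in each group, 6 were more than 2-fold higher and 3 more than 2-fold lower. How often a member passed rose with its level: 12 of the 15 at 10 CPM or more were called, 17 of the 39 from 1 to 10, and 6 of the 19 below 1. The median coefficient of variation between libraries was 4.52% (UNC2400) and 6.03% (UNC1999) at 10 CPM or more, and 23.7% and 25.5% below 1 CPM. At the low levels only large differences could be detected.

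**Figure D1:**
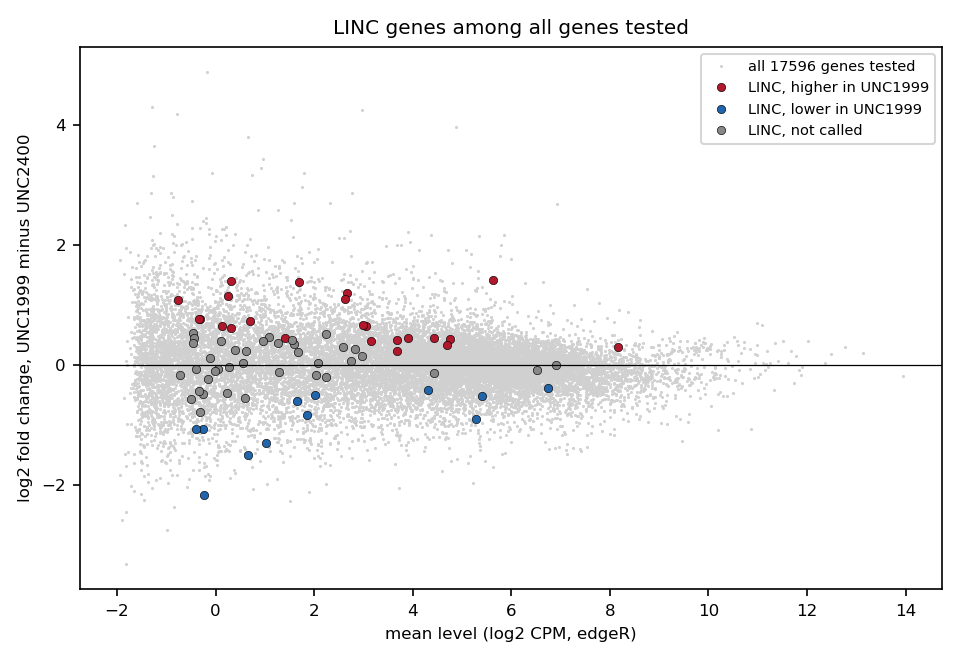
Log2 fold change (UNC1999 minus UNC2400) against the mean level (log2 CPM as edgeR gives it) for all 17596 genes tested, in pale grey, with the 73 LINC genes on top in red (23 higher), blue (12 lower) and dark grey (38 not called). LINC genes lie mostly at the low end of the level axis, and those not called crowd there.

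Among the transcripts known from pluripotent cells, 4 were listed and 3 were in the table, of which 2 were lower and none was higher. Of all genes tested, 25.9% were lower and 26.8% higher, and 3 hand-chosen genes are too few to compare with these shares. LINC00678, known from undifferentiated pluripotent cells, stood at 120, 127 and 117 CPM (TMM-scaled, as all levels of single genes below) in UNC2400 replicates 1 to 3, and at 97.5, 91.5 and 91.8 CPM in UNC1999 replicates 1 to 3. Every UNC1999 library was below every UNC2400 library (log2 fold change -0.38 ± 0.05, SE; edgeR adjusted p = 1.29e-05). Per kilobase of joined exons it had the highest level of the members with a length, 92.0 CPM, above LINC00657 at 53.6 and LINC00371 at 25.3. LINC00617, now named TUNAR, is a conserved transcript needed for pluripotency and neural differentiation in mouse cells, and it also encodes a small membrane protein. It was at 49.0, 47.8 and 52.1 CPM in UNC2400 and at 37.0, 32.6 and 34.5 CPM in UNC1999, again with no overlap (log2 fold change -0.52 ± 0.06, SE; adjusted p = 2.52e-06). LINC00458 had 2.08, 2.92 and 2.35 CPM in UNC2400 and 2.41, 2.30 and 2.18 CPM in UNC1999. Its groups overlapped, and its log2 fold change of -0.11 had a 95% interval of -0.48 to 0.26. LINC-ROR, a pluripotency-linked non-coding RNA whose name falls outside the numbered form, was also lower, by a log2 fold change of -1.05 ± 0.07 (SE).

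Only some of the listed loci that encode small proteins were called. Of 9 listed, 5 were in the table, of which 2 were higher (40.0%), none was lower and 3 did not pass. All genes tested had 26.8% higher and 25.9% lower. The log2 fold change was above 0 in 4 of the 5 and below 0 in 1. LINC00617, which was lower, also encodes a small protein but was placed on the pluripotency list. LINC00086 had the largest rise of all members: 30.2, 24.4 and 25.6 CPM in UNC2400 against 67.5, 71.5 and 76.1 CPM in UNC1999. The lowest UNC1999 library was above every UNC2400 library by more than the spread within either group (log2 fold change 1.43 ± 0.07, SE; adjusted p = 5.08e-10). LINC00087 was at 6.81, 5.51 and 6.99 CPM in UNC2400 and 7.81, 7.05 and 8.22 CPM in UNC1999. The groups did not overlap, but the gene did not pass (log2 fold change 0.27, 95% interval 0.02 to 0.51; adjusted p = 0.0652). LINC00086 and LINC00087 are older names of SMIM10L2A and SMIM10L2B, a pair of small integral membrane protein genes. RefSeq lists each name under both, so which row is which gene could not be settled. Transcripts of the pair align over 2745 bases at 92.35% identity, and how reads with several matches were counted is not given, so the split between the rows is uncertain.

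LINC00493, now SMIM26, encodes a mitochondrial microprotein. Its levels were 22.8, 23.7 and 21.6 CPM in UNC2400 and 28.3, 27.7 and 30.2 CPM in UNC1999, with no overlap (log2 fold change 0.34 ± 0.07, SE; adjusted p = 0.000365). With the span, exon length and GC offsets its log2 fold change was 0.02 (adjusted p = 0.861). LINC00116, now MTLN, encodes mitoregulin, a protein of the inner mitochondrial membrane that acts in fatty acid oxidation. It had 4.72, 5.22 and 5.00 CPM in UNC2400 and 4.44, 4.52 and 4.16 CPM in UNC1999, a log2 fold change of -0.19 that did not pass (95% interval -0.45 to 0.06). LINC00467 had a log2 fold change of 0.08 with an interval of -0.15 to 0.31. In RefSeq 8 of the 73 members are now listed as protein-coding, of which 2 were called higher and 1 lower. Another 60 are listed as long non-coding RNA, of which 19 were higher (31.7%) and 11 lower (18.3%). All genes tested had 26.8% higher and 25.9% lower, and 8 genes are too few to compare with these shares. The 5 members without a RefSeq match, LINC00086 and LINC00087 among them, are in neither class.

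**Figure D2:**
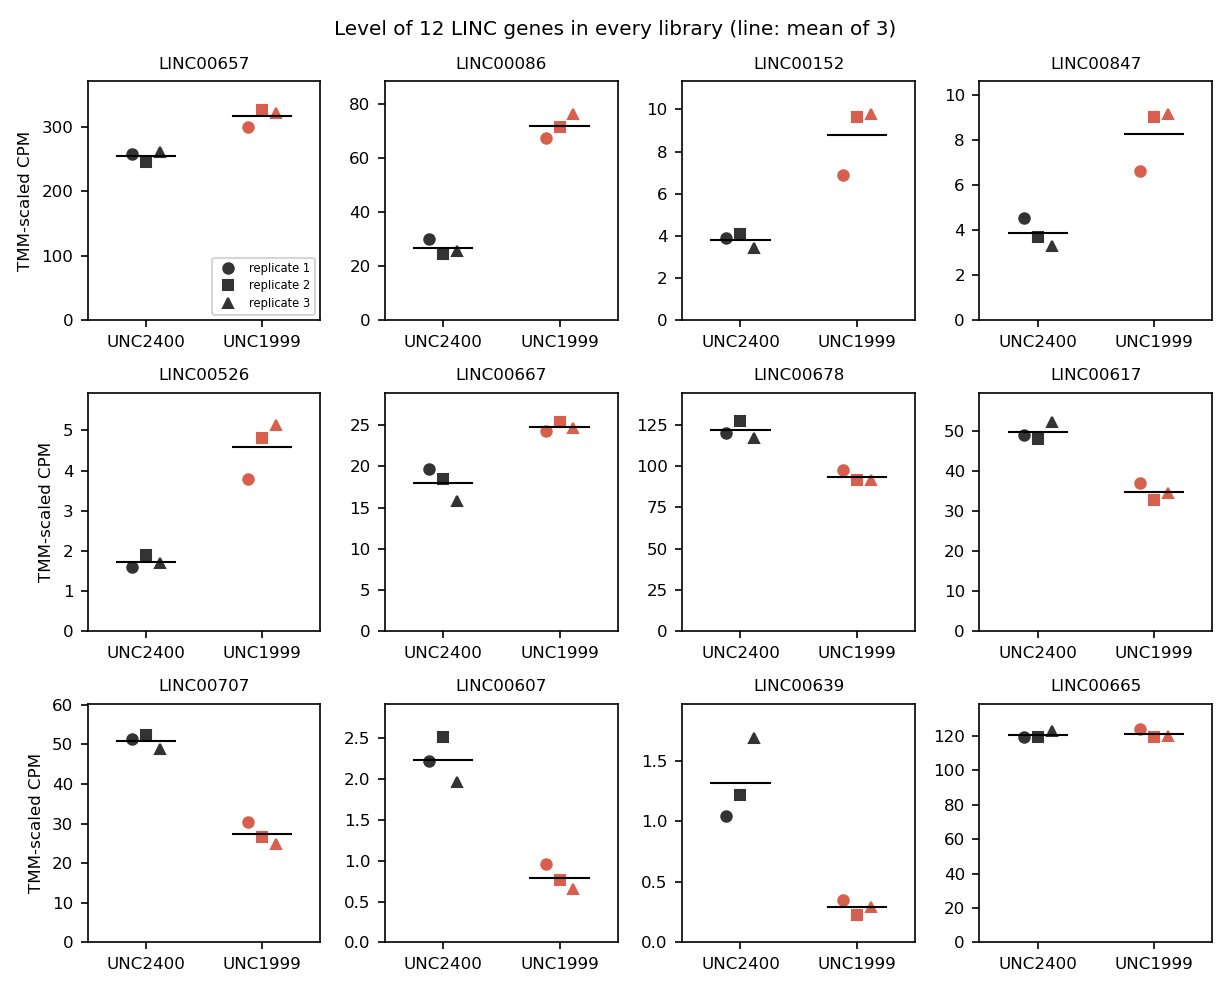
TMM-scaled CPM of 12 LINC genes in each library, UNC2400 in dark grey and UNC1999 in red, with a marker shape per replicate number and a line at the mean of 3. Each vertical axis starts at 0; the groups separate in every panel except LINC00665, and UNC1999 replicate 1 (circle) is the UNC1999 library nearest to UNC2400 in all of the other 11 panels.

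The most abundant member was LINC00657, known as NORAD, a cytoplasmic RNA that binds PUMILIO proteins and is needed for stable chromosome numbers. It stood at 258, 246 and 262 CPM in UNC2400 and at 300, 327 and 322 CPM in UNC1999. All UNC1999 libraries were higher (adjusted p = 0.000114 for the log2 fold change of 0.31 given above). NORAD is a single-exon gene with a short span. With the offsets its log2 fold change was 0.02 (adjusted p = 0.755). The offsets were fitted to these same libraries, so they also take out any treatment effect that goes with span, exon length or GC content. Why the value fell was not tested. A stretch of 1036 bases of it matches the transcript of another gene, LINC02211, at 98.2% identity, so some of its reads may be shared. LINC00665, studied mostly in tumours, hardly differed between the groups: 119, 119 and 123 CPM in UNC2400 and 124, 119 and 120 CPM in UNC1999. The 95% interval of its log2 fold change was -0.09 to 0.11, all of it below the 0.31 of LINC00657. LINC00371, now listed as the protein-coding gene C13orf42, averaged 94.4 ± 3.21 CPM in UNC2400 and 88.8 ± 2.12 CPM in UNC1999 (SD, n = 3 each) and did not pass (log2 fold change -0.09, adjusted p = 0.154).

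LINC00707 was the most clearly lowered of the abundant members, with 51.3, 52.4 and 48.7 CPM in UNC2400 and 30.3, 26.7 and 24.9 CPM in UNC1999. No library of one group came near the other group (log2 fold change -0.90 ± 0.07, SE; adjusted p = 2.61e-08). LINC00094, now BRD3OS, lies opposite the bromodomain gene BRD3. It was at 22.2, 22.8 and 23.3 CPM in UNC2400 and 25.2, 33.9 and 33.6 CPM in UNC1999, where replicate 1 lay between UNC2400 and the other UNC1999 libraries (log2 fold change 0.44 ± 0.09, SE). LINC00641 averaged 22.7 ± 1.75 CPM in UNC2400 and 20.7 ± 1.89 CPM in UNC1999 (SD, n = 3 each), with overlap between the groups. It passed without UNC1999 replicate 1 (log2 fold change -0.19, adjusted p = 0.0355) and with the offsets (-0.39, adjusted p = 0.000364).

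A short hand-chosen list held LINC genes studied in tumours or in other disease settings, and 7 members on it were tested. Of these, LINC00657, LINC00152 and LINC00662 were higher (42.9%) and none was lower, beside 26.8% and 25.9% of all genes tested. Members outside the list were not sorted by such studies, so the count does not speak for them. LINC00152, now CYTOR, is known from tumours and from work on the cytoskeleton. It had 3.92, 4.10 and 3.41 CPM in UNC2400 and 6.91, 9.64 and 9.79 CPM in UNC1999. The groups were far apart, with UNC1999 replicate 1 the lowest of its group (log2 fold change 1.20 ± 0.14, SE; adjusted p = 2.57e-06). CYTOR has a near-identical copy, MIR4435-2HG, which matches it over 2254 bases at 99.2% identity, so its counts cannot be assigned to the locus with certainty. LINC00662 averaged 6.06 ± 0.739 CPM in UNC2400 and 9.69 ± 1.10 CPM in UNC1999 (SD, n = 3 each; log2 fold change 0.67 ± 0.12, SE). LINC00338, the small nucleolar RNA host gene SNHG20, had a log2 fold change of 0.30 and did not pass (95% interval 0.02 to 0.58; adjusted p = 0.064). Leaving out libraries, it passed without UNC1999 replicate 1 (adjusted p = 0.047), UNC1999 replicate 3 (0.0429) or UNC2400 replicate 2 (0.0485). LINC00312 had a log2 fold change of 0.41 (interval 0.01 to 0.80; adjusted p = 0.0765) and LINC00511 one of 0.26 (interval -0.24 to 0.75). With the offsets LINC00511 passed, at 0.76 (adjusted p = 0.0096). LINC00265 was at 5.95, 10.4 and 8.28 CPM in UNC1999 replicates 1 to 3, the first of them below all UNC2400 libraries, and without that library it passed (log2 fold change 0.32, adjusted p = 0.0142; 0.15 with it).

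The pair with the shared start region went the same way. LINC00526 had 1.60, 1.89 and 1.69 CPM in UNC2400 and 3.80, 4.80 and 5.13 CPM in UNC1999. LINC00667 had 19.7, 18.4 and 15.8 CPM in UNC2400 and 24.3, 25.4 and 24.7 CPM in UNC1999. Neither gene's groups overlapped. The log2 fold changes were 1.39 ± 0.16 (SE; adjusted p = 2.65e-06) and 0.46 ± 0.08 (SE; adjusted p = 9.34e-05). Exons of the pair overlap on opposite strands in GENCODE 29. The strand setting of the counting is not given, so reads of the more abundant LINC00667 could have been counted for LINC00526.

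LINC00847 overlaps the zinc finger gene ZFP62 in RefSeq and an exon of HEIH on the opposite strand in GENCODE 29. Its levels were 4.55, 3.71 and 3.31 CPM in UNC2400 and 6.62, 9.01 and 9.17 CPM in UNC1999, with no overlap (log2 fold change 1.10 ± 0.15, SE; adjusted p = 8.95e-06). The other strongly raised members were rarer. LINC00052 had 0.694, 0.718 and 0.497 CPM in UNC2400 and 1.19, 2.02 and 1.92 CPM in UNC1999 (log2 fold change 1.41 ± 0.27, SE; adjusted p = 0.00033). LINC00857 averaged 0.691 ± 0.174 CPM in UNC2400 and 1.55 ± 0.383 CPM in UNC1999 (SD, n = 3 each; log2 fold change 1.15 ± 0.27, SE). LINC00494, with 1.18, 1.10 and 1.23 CPM against 2.03, 1.85 and 1.95 CPM, had little spread within either group (log2 fold change 0.73 ± 0.20, SE).

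Calls of the rarest raised members often ended under another setting or without 1 library. LINC00652 averaged 0.334 ± 0.0486 CPM in UNC2400 and 0.723 ± 0.194 CPM in UNC1999 (SD, n = 3 each; log2 fold change 1.10, adjusted p = 0.0124). It reached the member limit only through UNC1999, where it is high. Without UNC1999 replicate 2 its adjusted p was 0.0648, and without UNC2400 replicate 1 it was 0.0543. LINC00391 (0.77 ± 0.30, SE; adjusted p = 0.0394) lost its call in 7 of 13 alternative fits: with DESeq2 (adjusted p = 0.0933), with no low-count filter (0.0558), with the offsets (0.136) and without any of 4 libraries. LINC00471 (0.77 ± 0.30, SE; adjusted p = 0.0423) lost it in 9: with DESeq2 (0.101), limma-voom (0.0627), no low-count filter (0.0575), the offsets (0.198) and without any of 5 libraries. For LINC00391 the log2 fold change without UNC1999 replicate 2 was 0.56 (adjusted p = 0.176).

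LINC00639 had the largest fall of the members, but it reached the member limit only through UNC2400, where it is high. It was at 1.04, 1.22 and 1.69 CPM in UNC2400 and at 0.348, 0.227 and 0.295 CPM in UNC1999. The lowest UNC2400 library was well above the highest UNC1999 library (log2 fold change -2.17 ± 0.32, SE; adjusted p = 2.50e-05). LINC00607, known from endothelial cells, had 2.22, 2.51 and 1.96 CPM in UNC2400 and 0.958, 0.767 and 0.648 CPM in UNC1999 (log2 fold change -1.50 ± 0.22, SE; adjusted p = 2.67e-05). These levels do not overlap either. LINC00342 averaged 2.85 ± 0.694 CPM in UNC2400 and 1.15 ± 0.477 CPM in UNC1999 (SD, n = 3 each; log2 fold change -1.29 ± 0.26, SE). It shares near-identical sequence with another transcript, so its level is uncertain. LINC00174 averaged 4.52 ± 0.633 CPM in UNC2400 and 2.55 ± 0.880 CPM in UNC1999 (SD, n = 3 each; log2 fold change -0.83 ± 0.20, SE), with the same limit.

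LINC00852 and LINC00304 were low in both groups, and LINC00304 reached the member limit only through UNC2400. LINC00852 had 1.28, 1.08 and 0.795 CPM in UNC2400 and 0.580, 0.568 and 0.354 CPM in UNC1999 (log2 fold change -1.06 ± 0.30, SE; adjusted p = 0.00699). LINC00304 had 1.08, 0.838 and 0.961 CPM against 0.348, 0.711 and 0.295 CPM, with UNC1999 replicate 2 standing nearer to UNC2400 (log2 fold change -1.06 ± 0.33, SE; adjusted p = 0.013). Its adjusted p was 0.0633 without UNC1999 replicate 3 and 0.0536 without UNC2400 replicate 1. LINC00648 (log2 fold change -0.59 ± 0.17, SE; adjusted p = 0.00745) had an adjusted p of 0.0561 without UNC2400 replicate 1. LINC00630, on the X chromosome, had overlapping groups (3.55 CPM in UNC2400 replicate 3, 3.74 in UNC1999 replicate 1), and its log2 fold change was -0.49 ± 0.17 (SE; adjusted p = 0.0225). Its adjusted p was 0.0919 without UNC1999 replicate 3, 0.107 without UNC2400 replicate 1, 0.103 without UNC2400 replicate 2 and 0.0538 with the offsets.

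**Figure D3:**
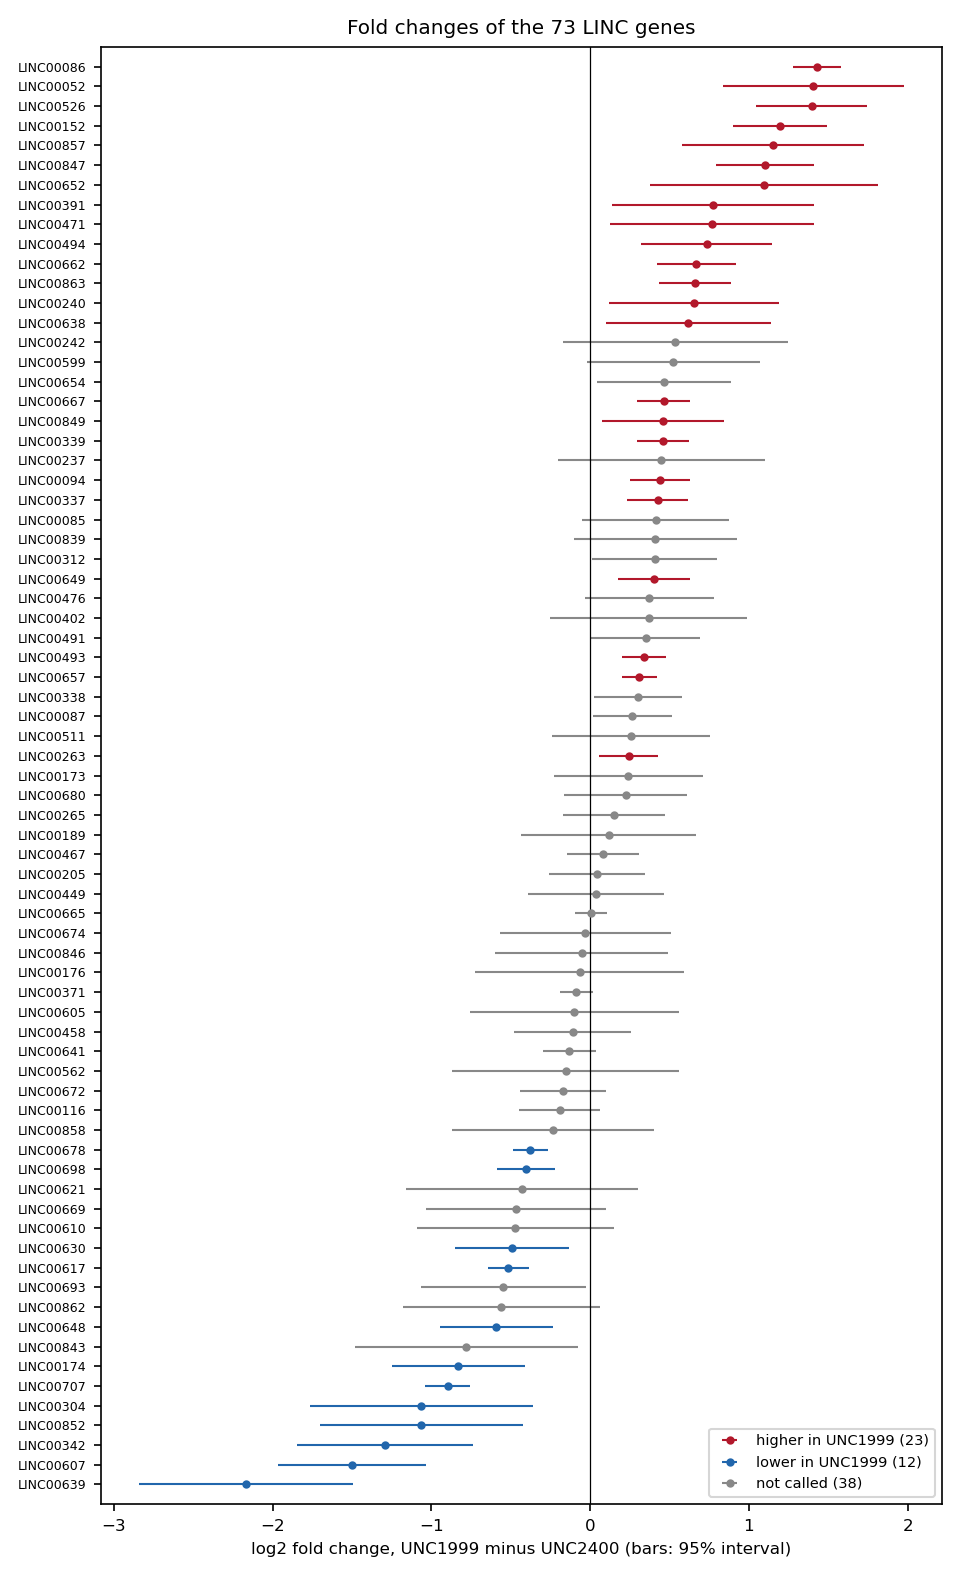
Log2 fold change (UNC1999 minus UNC2400) of each of the 73 LINC genes with its 95% interval as a bar, ordered by size, with red for the 23 higher, blue for the 12 lower and grey for the 38 not called. The intervals of LINC00086 and LINC00678 are short, while those of rare members such as LINC00652 span more than 1 unit.

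Of the 4 listed LINC genes known from development, the table holds LINC00261, a gene of the endoderm. It had a mean of 0.114 CPM and was below the low-count filter, so it has no test.

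Other long non-coding RNAs were read beside the members. Of a hand-chosen list of 40 named ones, 25 were tested, with 13 higher (52.0%) and 6 lower (24.0%). All genes tested had 26.8% and 25.9%. The median SE was 0.09 on this list and 0.20 in the members, so the share called is not comparable between them. The most clearly changed were snoRNA host genes and LINC-ROR: ZFAS1 was higher by 1.02 ± 0.06, GAS5 by 1.01 ± 0.07, SNHG5 by 0.73 ± 0.05 and EPB41L4A-AS1 by 1.23 ± 0.09 (log2, SE; adjusted p from 1.83e-09 to 1.83e-08). Genes with a name of the antisense type and a mean of at least 0.5 CPM numbered 159, with a median log2 fold change of 0.28. Of these, 55 were higher (34.6%) and 11 lower (6.92%), beside 28.3% and 27.5% of all genes with such a mean. Higher calls outnumbered lower calls in these antisense-named genes as they did in the LINC genes.

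The length of the locus differed between the members that were higher and those that were lower. Genomic span, read from GENCODE 29 for 66 members, had a median of 8.27 kb in higher, 74.5 kb in lower and 15.4 kb in not called members. All genes tested had 17.0 kb, 70.5 kb and 27.6 kb. The rank correlation of span with fold change was -0.25 across 66 members and -0.39 across 15496 genes tested, both across genes, which are not independent replicates. The pattern was thus not particular to LINC genes. LINC00639 and LINC00607, which fell most, span 199 kb and 232 kb, and LINC00526 and LINC00052, which rose most among those with a span, 1.88 kb and 2.94 kb. Of these, LINC00639 reached the member limit only through UNC2400. Exceptions among the higher members are LINC00152 (182 kb), LINC00662 (109 kb), LINC00263 (80.5 kb), LINC00240 (66.9 kb) and LINC00649 (62.2 kb). Among the lower they are LINC00852 (1.33 kb), LINC00304 (5.10 kb), LINC00342 (9.10 kb) and LINC00678 (17.0 kb).

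**Figure D4:**
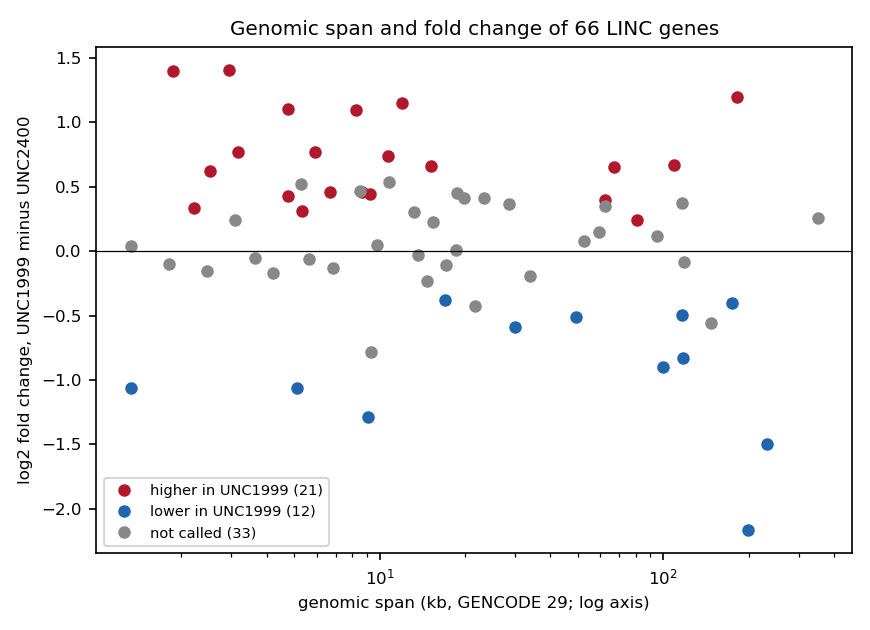
Log2 fold change (UNC1999 minus UNC2400) against genomic span in kb (log axis, GENCODE 29) for the 66 LINC genes with a span: 21 higher in red, 12 lower in blue and 33 not called in grey. Most red points lie below 20 kb and most blue points above it, with exceptions on both sides.

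The protein-coding gene nearest to each member in RefSeq was tested for 56 members, and 26 of these members were called. In 15 of the 26 the neighbour was called too, in 12 in the same direction and in 3 in the opposite one. Over all genes tested with such a neighbour, 2428 of 4294 pairs with both called went the same way (56.5%), beside 80% of the 15. The rank correlation of the fold changes was 0.39 across the 56 members and 0.10 across 13102 genes tested. Of the 56 neighbours, 15 overlap the member in RefSeq or share an exon position with it in GENCODE 29, and all 5 of their pairs with both called went the same way. Among the 41 that overlap in neither annotation, 7 of 10 pairs did (70%), with a rank correlation of 0.24. The difference between members and other genes was not tested.

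LINC00391 lies next to SOX21, a transcription factor gene of the early nervous system, which rose from a mean of 43.5 to 112 CPM (log2 fold change 1.37 ± 0.05, SE). LINC00648 lies next to MDGA2, which encodes a cell surface protein of synapses and fell from 23.7 to 10.1 CPM (-1.23 ± 0.08, SE). Both members moved with their neighbour. LINC00707 and PRKCQ, a protein kinase C gene, were both lower (PRKCQ -0.42 ± 0.06, SE), as were LINC00639 and SEC23A, a gene of secretory vesicle coats (SEC23A -0.37 ± 0.05, SE). LINC00342 and ANKRD36C were lower (ANKRD36C -1.10 ± 0.17, SE), but ANKRD36C belongs to a family of near-identical copies. LINC00304 and ACSF3 share exon sequence on 1 strand, so their common fall (ACSF3 -0.54 ± 0.08, SE) may count the same reads. LINC00847 and ZFP62 were both higher (ZFP62 0.53 ± 0.07, SE), and their loci overlap in RefSeq. ZFP62 was the more abundant, with means of 28.7 CPM in UNC2400 and 41.5 CPM in UNC1999. The strand setting of the counting is not given, so some of its reads could have been counted for LINC00847.

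The pairs that parted were LINC00052 with NTRK3, LINC00607 with MREG and LINC00493 with SEC23B. NTRK3, the gene of a neurotrophin receptor, fell from 29.3 to 18.0 CPM (-0.71 ± 0.06, SE) while LINC00052 rose. MREG was higher while LINC00607 was lower (MREG 0.24 ± 0.08), and SEC23B was lower while LINC00493 was higher (SEC23B -0.14 ± 0.05; log2, SE). Neighbours of LINC00678 and LINC00617 did not pass: BDNF had a log2 fold change of 0.23 (adjusted p = 0.143) and C14orf132 one of -0.08 (adjusted p = 0.318).

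**Figure D5:**
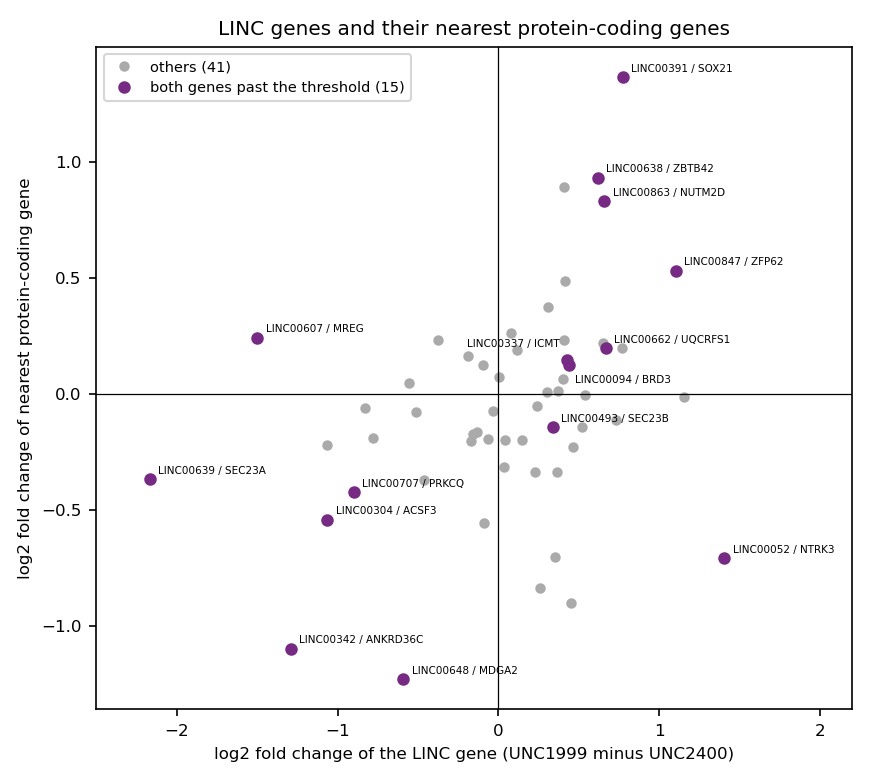
Log2 fold change of the nearest protein-coding gene against that of the LINC gene (both UNC1999 minus UNC2400) for 56 pairs, with the 15 pairs in which both were called in purple and named. Of the purple points, 12 lie in the quadrants of equal sign, and the pair of LINC00052 with NTRK3 lies apart at the lower right.

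The counts of many members can hold reads of other genes. In GENCODE 29, 14 members had a transcript that matches one of another gene over at least 200 bases at 97% identity or more, 15 overlapped an exon of another gene on the same strand and 22 on the opposite strand. At least 1 of these held for 39 members, 27 had none, and 7 are not in that annotation by name. Among the 27, 8 were higher and 4 lower. The authors' deposited table of log2 fold changes holds all 73 members, 32 of them with an adjusted p under 0.05 in the authors' deposited table, and all 32 were also called here with the same sign.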

How the data were processed

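RNA was measured by poly(A)-selected sequencing with a strand-marking kit from 200 ng of RNA in 6 libraries, grouped by their titles. The authors deposited whole-number counts per gene name (53712 names), without normalization. Per the submitters' processing notes, the tools were TopHat2 2.0.13, Trim Galore 0.4.0, Subread 1.5.0 and featureCounts, with hg19 as the build and no roles stated. The sources used here do not give the annotation, the strand setting or how multiply matching reads were handled. A table of the comparison was also deposited by the authors, with log2 fold changes, their p-values and a test score for each gene per the file headers. It was used only for the number of members it calls. The authors' deposited log2 expression values, batch-corrected by their name, were not tested. That name does not say what the batch was.

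From the counts, CPM (count over the library total, for the member rule) and TMM-scaled CPM (for levels) were computed. Differences were tested with edgeR 4.0.16 under R 4.3.3, by its two-sided quasi-likelihood F test with group as the only term and the default low-count filter, fitted on all 17596 genes that passed. P-values were adjusted over these genes by the Benjamini-Hochberg method, and 0.05 was the threshold. A positive log2 fold change means a higher level in UNC1999. A sum of 3 counts is the limit that a count of 0 allows. The script was tested on simulated counts. Replicates of a group differed by more than counting noise. Names, neighbours and start windows came from RefSeq (GRCh38.p14): 50 members matched by symbol, 18 by an older name, and 5 did not match. Span, exon length and GC came from GENCODE 29, whose build differs from hg19, as properties only.

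Alternatives were RLE and upper-quartile scaling, no low-count filter, DESeq2 1.42.0, limma-voom (limma 3.58.1), a replicate block, leaving out each library, other limits of the member rule, and 2 chosen after seeing the data: the length and GC offsets, and only members without shared sequence or exon overlap. The members and lists were chosen with earlier results of these data known. Named are the 8 highest members, the called members of largest fold (up to 10 each way), those on the lists of pluripotency-linked, small-protein, developmental and studied LINC genes, 3 on each side of the limit, up to 4 of the highest members not called, 5 other long non-coding RNAs, and the nearest protein-coding genes of named called members. LINC00667, BDNF and C14orf132 were added after their values were seen, as were the older names.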

Additional observations from a re-analysis of the deposited data

How the results depend on the processing

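The 35 calls (23 higher, 12 lower) were 35 (23, 12) with RLE and with upper-quartile scaling, 33 (21, 12) with limma-voom, 33 (19, 14) without a low-count filter, 29 (17, 12) with DESeq2, and 30 (16, 14) of 66 members with the span, exon length and GC offsets chosen after seeing the data. Leaving out each library in turn gave 28 to 40 called, 16 to 26 higher and 9 to 14 lower. A mean limit of 0.25 CPM gave 39 of 87 rows, a limit of 1 CPM gave 29 of 54, and 0.5 CPM in each group gave 32 of 70. Without members that share sequence or exons with another gene, which leaves 27 members, 12 were called, 8 higher and 4 lower. No named member changed direction while called. Of the 35, 21 (12 higher, 9 lower) remained called in every alternative fit that could be made for them. LINC00086 could not be fitted with the offsets, since it has no matched length. LINC00657, LINC00493, LINC00339 and LINC00337, all higher, lost their call with the offsets alone of the 13 alternative fits. The cause was not tested. The difference in summed level of 123.6 CPM was 97.4 to 146.6 when a library was left out, and 83.5 with TMM scaling. Whether the replicate numbers pair the samples was not settled. Correlations of same-numbered libraries' deviations were weak, at 0.024, 0.084 and 0.124, and those of differently numbered libraries ran from -0.136 to 0.062. With the replicate block 40 members were called (28 higher, 12 lower), and 54.3% of all genes tested. LINC00087 and LINC00338, not called without the block, passed with it (adjusted p = 0.0417 and 0.0268). Depth limits the rarest members: at 0.5 CPM a library holds 14.8 to 21.2 counts.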
